A study of Mus musculus with 6 samples.

Results

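Cell surface antigens are how blood stem and progenitor cells are told apart, and 10 genes encoding such antigens are described here in MN1-transformed mouse myeloid progenitors with and without Dot1l: Cd34, Prom1, Procr, Ptk7, Cd93, Cd48, Cd84, Cd244, Slamf1 and Robo4. The genes were picked by symbol from 31626 genes, 1 row each, and none had a placeholder value. RNA was measured in common myeloid progenitors of C57Bl/6 mice, immature cells that give rise to granulocytes, monocytes, red cells and platelets. In 3 libraries Dot1l was deleted (Dot1l -/-, transduced with Cre), and in 3 control libraries it was floxed and intact (Dot1l flox/flox, transduced with a control). All 6 libraries share transformation by a retrovirus carrying MN1 and GFP (MSCV-MN1-IRES-GFP), methylcellulose culture (M3234) with FBS, IL3, IL6 and SCF, and sorting on day 7. There was no sample with Cre and intact Dot1l, so an effect of Cre and one of the deletion cannot be told apart. Whether the replicates are separate cultures or mice is not in the labels, so the p-values reflect the spread among these libraries, which could be technical. DOT1L adds a methyl mark to histone H3 that is found on transcribed genes.

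Antibodies to these antigens define the steps of early blood formation. In mouse bone marrow, common myeloid progenitors are gated as Kit-positive, CD34-positive cells with little Sca-1 (encoded by Ly6a) and low Fc gamma receptor, granulocyte and macrophage progenitors as CD34-positive with high Fc gamma receptor, and megakaryocyte and erythroid progenitors as negative for both. The SLAM family gives another code, in which long-term stem cells carry CD150 (encoded by Slamf1) and lack CD48 and CD244, while CD48 and CD244 appear on cells further along. PROCR, the endothelial protein C receptor, marks stem cells, and CD93 has been used in the mouse to isolate fetal stem cells and early B cell progenitors. CD133, encoded by Prom1, is used to enrich human blood stem cells. The values below are RNA levels and say nothing of the protein on the surface.

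Cd34 fell and Prom1 rose after Dot1l deletion, and Cd48, Procr, Cd93 and Cd84 fell. FPKM (fragment counts divided by gene length and by library size) allows levels to be compared between genes. The test was limma across all genes whose mean FPKM reached 1, on log2(FPKM + 1), which understates the change of low genes. A gene was called at a Benjamini-Hochberg adjusted p under 0.05 over all 11924 genes tested. Of the 10 antigen genes, 8 were tested, 5 were called lower, 1 was called higher and 2 were not called. Over all tested genes 19.7% were called, 12.2% lower and 7.43% higher. The median log2 fold change was -0.87 over the 8 genes and -0.16 over all tested genes. In FPKM, without a test, all 3 Dot1l-deleted values were below all 3 control values for 7 of the 10 genes and above them for 1, and of the 2 remaining genes Ptk7 overlapped and Robo4 was at 0. The 7 include Slamf1, which like Robo4 was below the filter and not tested. Over all tested genes, a set without these 2, the groups did not overlap in 44.9%, with 34.1% lower and 10.7% higher.

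**Figure D1:**
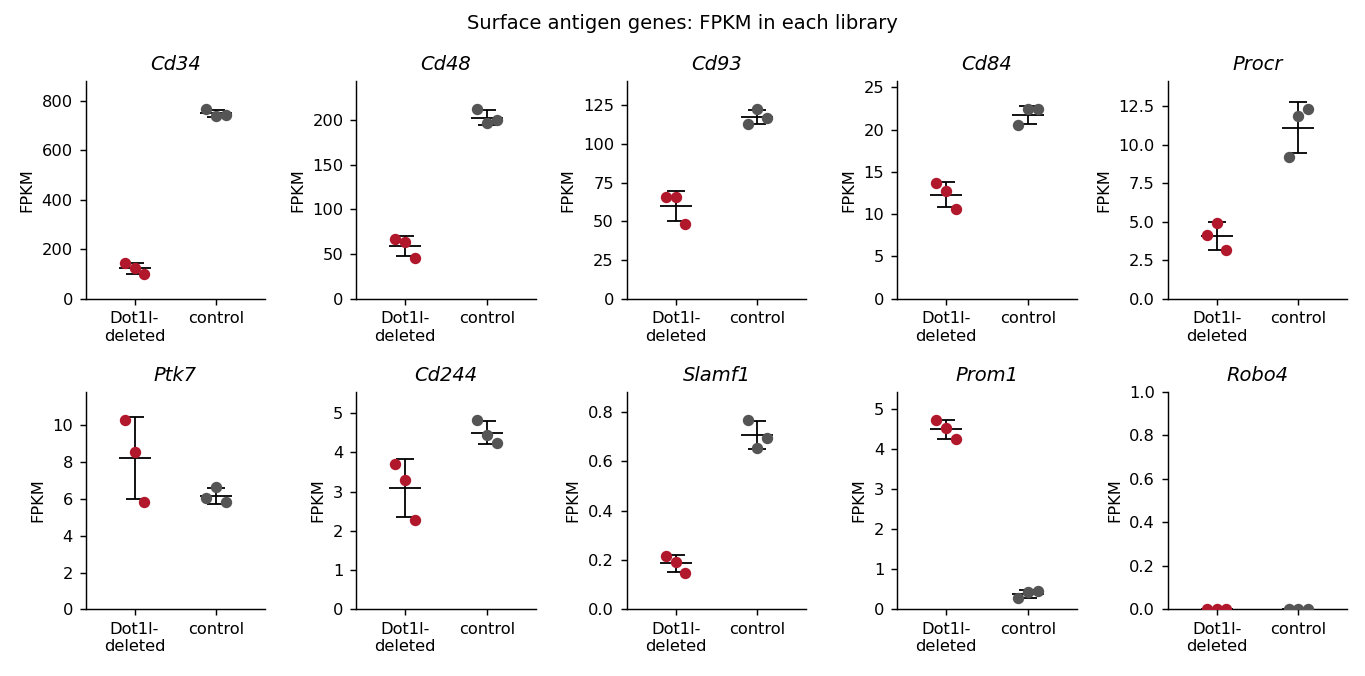
FPKM of the 10 genes in the 3 Dot1l-deleted libraries (red, left) and the 3 control libraries (grey, right), each panel with its own linear axis from 0. Points are libraries, and the bar is the mean with its SD. Cd34 sits between 100 and 143 FPKM after deletion and between 738 and 765 FPKM in controls, Prom1 is higher in every Dot1l-deleted library, and Robo4 is listed at 0 throughout.

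Dot1l itself was used to check the labels, and its RNA was lower but not absent after deletion. Its FPKM was 8.24, 8.17 and 5.80 in the Dot1l-deleted libraries, against 20.2, 22.6 and 19.6 in controls (log2 fold change -1.39, SE 0.157, limma adjusted p = 0.000124). The third Dot1l-deleted library stood apart, in that its genes deviated from their own 6-library mean by a median log2 value of -0.366, while the median was 0.0499 to 0.0619 in the other Dot1l-deleted libraries and 0.0657 to 0.103 in the controls. Its 10 highest rows held 39.0% of all FPKM, against 10.7% and 10.8% in the other Dot1l-deleted libraries and 6.59% to 6.98% in controls. The 9 antigen genes above 0 each had their lowest Dot1l-deleted value in that library. Median-of-ratios scaling, which divides each library by the median ratio of its genes to their geometric mean, brought the median log2 fold change over the tested genes to 0.0011. With that scaling 2740 genes were called higher and 2661 lower, against 886 higher and 1459 lower with the values as deposited. Values on that scale are called scaled below.

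Cd34 encodes a sialomucin of the cell membrane that binds selectins. Its FPKM was 143, 126 and 100 in the Dot1l-deleted libraries, against 765, 738 and 745 in controls. All 3 Dot1l-deleted libraries lay far below all 3 controls. The mean was 123 ± 21.1 FPKM after deletion and 750 ± 14.0 FPKM in controls (SD, n = 3 each), a 6.10-fold lower level. The log2 fold change was -2.61 (SE 0.180, 95% interval -3.01 to -2.21, limma adjusted p = 4.2941e-06), and -2.43 scaled. Only 54 of the 11924 tested genes had a lower log2 fold change. Cd34 was the 684th, 802nd and 712th most abundant gene in the Dot1l-deleted libraries, and the 65th, 59th and 64th in controls. It remained the most abundant of the 10 genes in all 6 libraries, with 43.5% to 45.8% of their summed FPKM after deletion and 66.9% to 67.6% in controls.

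Prom1 encodes prominin 1, a membrane protein with several membrane spans found on protrusions of the cell surface. Its FPKM was 4.73, 4.53 and 4.26 in the Dot1l-deleted libraries, against 0.280, 0.426 and 0.450 in controls. The groups were well apart, and the third Dot1l-deleted library was no exception. The mean was 4.50 ± 0.236 FPKM after deletion and 0.385 ± 0.0919 FPKM in controls (SD, n = 3 each), an 11.7-fold higher level. The log2 fold change was 1.99 (SE 0.167, 95% interval 1.62 to 2.36, limma adjusted p = 1.4628e-05), and 2.09 scaled. Prom1 passed the filter on low values only through the Dot1l-deleted libraries, so among tested genes a gene with its control level had to be higher after deletion. Its log2 fold change was exceeded by 168 tested genes. The levels stayed far below those of Cd34 in both groups.

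The DNA just upstream of the start of Cd34, of Cd48 and of Prom1 is given to show the promoters of the tested antigen genes with the lowest log2 fold changes and of the gene that rose. The sequences are from RefSeq on build GRCm38.p6, not the build mm9 of the FPKM files, and cover the 250 bases before the annotated start. They read 5′ to 3′ on the strand of the gene, in lower case, with capitals where a searched motif was matched.
Cd34, chr1:194938571-194938820, plus strand: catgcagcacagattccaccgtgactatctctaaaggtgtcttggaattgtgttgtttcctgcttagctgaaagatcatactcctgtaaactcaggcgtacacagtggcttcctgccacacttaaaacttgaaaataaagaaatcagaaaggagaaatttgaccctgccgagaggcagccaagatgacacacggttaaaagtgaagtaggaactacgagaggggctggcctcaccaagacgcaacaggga
Cd48, chr1:171681742-171681991, plus strand: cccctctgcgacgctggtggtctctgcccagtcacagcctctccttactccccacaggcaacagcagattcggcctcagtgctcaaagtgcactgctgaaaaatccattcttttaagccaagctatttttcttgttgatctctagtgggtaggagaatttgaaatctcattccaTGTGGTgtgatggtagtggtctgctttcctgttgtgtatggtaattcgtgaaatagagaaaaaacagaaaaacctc
Prom1, upstream start, chr5:44101737-44101986, minus strand: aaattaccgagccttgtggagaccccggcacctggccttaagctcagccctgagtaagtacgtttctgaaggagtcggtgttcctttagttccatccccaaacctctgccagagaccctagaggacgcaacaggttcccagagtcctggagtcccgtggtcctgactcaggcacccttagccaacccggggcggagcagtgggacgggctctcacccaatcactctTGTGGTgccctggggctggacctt
Motifs searched on both strands were TGTGGT for RUNX factors, TGACAG for MEIS factors, AGATAA for GATA factors, TTGCNNAA for C/EBP factors and GGAAGT for ETS factors, none of which overlapped here. In the same window they occur in 14.0%, 15.9%, 9.99%, 9.56% and 19.7% of 32851 RefSeq promoters. The Cd34 window held none of these letters, while the Cd48 and Prom1 windows each held TGTGGT on the strand of the gene. Among the antigen genes with a RefSeq promoter, TGTGGT was also found upstream of Cd84, TTGCNNAA upstream of Procr and Cd244, and GGAAGT upstream of the second start of Prom1. The Cd34 window held 6 CpG dinucleotides, the Cd48 window 4 and the Prom1 window 9, against a median of 6 over all promoters. A match of letters is a description and not a binding site.

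The SLAM receptors are immunoglobulin superfamily proteins encoded side by side on chromosome 1. CD48 is anchored to the membrane by a lipid and is the ligand of CD244, whereas CD150 and CD84 bind to their own kind on other cells. Cd48 fell the most among the tested SLAM genes. Its FPKM was 66.3, 63.4 and 45.6 in the Dot1l-deleted libraries, against 212, 196 and 199 in controls, with no overlap. The mean of 58.4 ± 11.2 FPKM after deletion was 3.46-fold lower than the 202 ± 8.06 FPKM of controls (SD, n = 3 each). The log2 fold change was -1.79 (SE 0.183, limma adjusted p = 6.0585e-05), and -1.61 scaled.

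Cd84 fell less. It was at 13.6, 12.7 and 10.6 FPKM in the Dot1l-deleted libraries, against 20.5, 22.4 and 22.4 FPKM in controls, again without overlap. The log2 fold change was -0.78 (SE 0.141, limma adjusted p = 0.0029592), and -0.61 scaled. Cd244, the receptor for CD48, was at 3.70, 3.30 and 2.27 FPKM in the Dot1l-deleted libraries, against 4.82, 4.45 and 4.23 FPKM in controls. The groups did not overlap, but the difference was not called with the values as deposited (log2 fold change -0.44, SE 0.169, 95% interval -0.82 to -0.065, limma adjusted p = 0.0980). It was called with scaling (scaled value -0.30, adjusted p = 0.0169) and without the third Dot1l-deleted library (-0.29, adjusted p = 0.0482).

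Slamf1, which encodes CD150, was barely measured. Its FPKM was 0.217, 0.194 and 0.149 in the Dot1l-deleted libraries, against 0.768, 0.656 and 0.695 in controls. Every control lay above every Dot1l-deleted library, a 3.78-fold difference of means, but the gene was below the filter and untested. With no filter on low values, its log2 fold change was -0.52 (limma adjusted p = 0.0017452). FPKM gives no read counts, so the number of reads behind such low values is unknown.

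The balance between members of the code was compared within each library. The log2 ratio of Cd48 to Cd244, taken on FPKM + 1, was 3.84, 3.90 and 3.83 in the Dot1l-deleted libraries, against 5.19, 5.18 and 5.26 in controls. RNA of the ligand was lower relative to that of its receptor in every Dot1l-deleted library, and the difference of -1.35 was far larger than the SD of 0.0396 after deletion and 0.0429 in controls. For Prom1 over Cd34 the log2 ratio was -4.65, -4.52 and -4.27 in the Dot1l-deleted libraries, against -9.23, -9.02 and -9.01 in controls, a difference of 4.60, which was 5.89 with a pseudocount of 0.1 and 3.39 with 5, as Prom1 lies under 1 FPKM in controls. For Cd48 over Slamf1 it averaged 5.63 ± 0.248 after deletion and 6.90 ± 0.0123 in controls (SD, n = 3 each). That gap of -1.27 shrank to -0.31 with a pseudocount of 0.1, as Slamf1 lies under the pseudocount of 1. For Cd84 over Slamf1 the difference was -0.26 with a pseudocount of 1 and 0.67 with 0.1, so its direction depends on that choice. Adding 1 FPKM leaves the ratios of low genes open to scaling, and in a comparison chosen after seeing the data the scaled differences were -1.31 for Cd48 over Cd244, 4.52 for Prom1 over Cd34, -1.14 for Cd48 over Slamf1 and -0.13 for Cd84 over Slamf1. In an exact two-sided permutation test each of the 4 ratios gave p = 0.1 before adjustment and p = 0.1 after Benjamini-Hochberg adjustment, the smallest that 3 against 3 libraries allow.

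**Figure D2:**
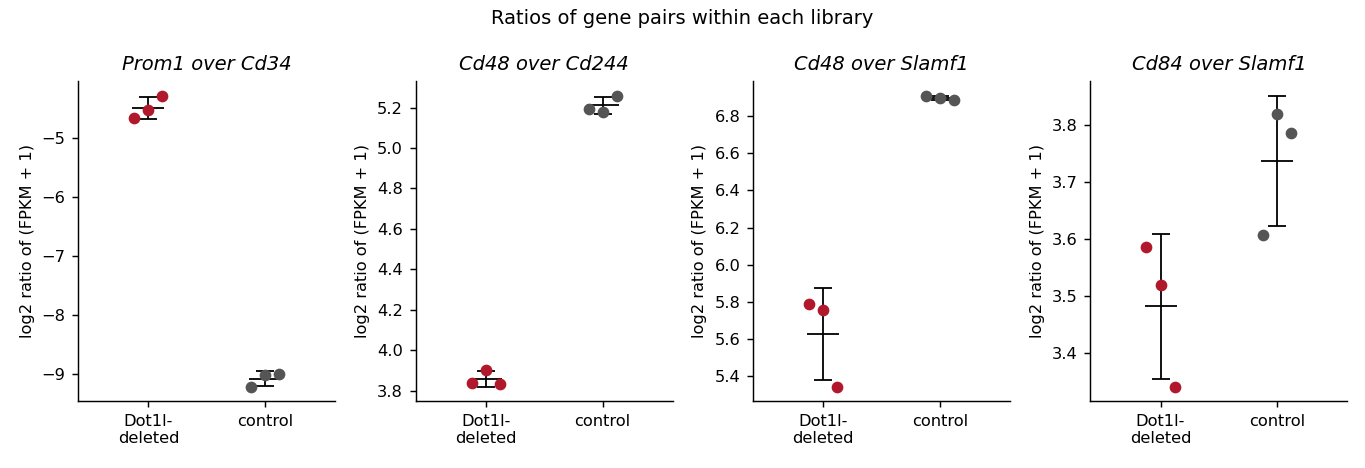
Log2 ratio of FPKM + 1 for 4 gene pairs in each library, Dot1l-deleted (red, left) and control (grey, right), with the mean and SD. Axes differ between panels and do not start at 0. Cd48 over Cd244 lies between 3.83 and 3.90 after deletion and between 5.18 and 5.26 in controls, while the Cd84 over Slamf1 groups lie close together.

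The falls did not run through the whole SLAM cluster. In RefSeq map order the family members there run Cd244, Ly9, Slamf7, Cd48, Slamf1, Cd84 and Slamf6. Ly9, which encodes the SLAM receptor CD229 and lies between Cd244 and Cd48, rose: it was at 14.2, 15.2 and 9.88 FPKM in the Dot1l-deleted libraries, against 8.38, 6.78 and 6.75 FPKM in controls (log2 fold change 0.75, SE 0.174, limma adjusted p = 0.0121). The call on Ly9 was lost without Dot1l-deleted replicate 1 or 2 or control replicate 2 or 3 (adjusted p = 0.0559 to 0.0820) and with no filter (0.0540). Slamf7 was at 0.0870 to 0.164 FPKM after deletion and at 0.0374 to 0.0556 FPKM in controls, and Slamf6 was listed at 0 in all libraries but 1 control. On the outer sides, F11r, a junctional adhesion molecule gene, had a log2 fold change of -0.14 (limma adjusted p = 0.605), and Vangl2, a planar cell polarity gene, one of -0.28 (adjusted p = 0.362).

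**Figure D3:**
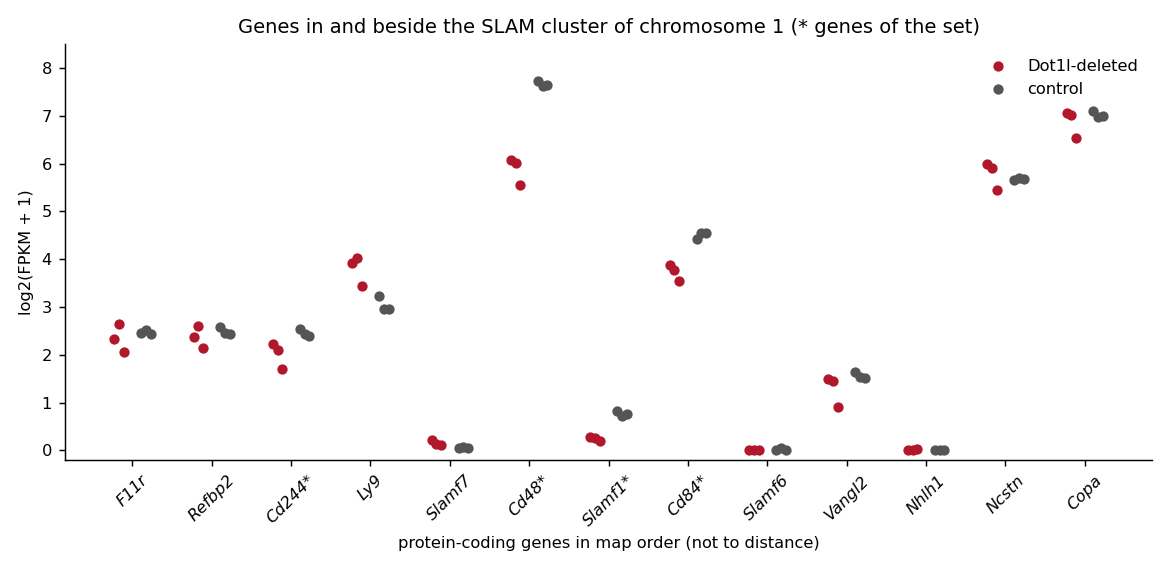
log2(FPKM + 1) of protein-coding genes in and beside the SLAM cluster, in RefSeq map order with equal spacing, in 3 Dot1l-deleted (red, left) and 3 control libraries (grey, right). Asterisks mark the antigen genes of the set. Cd48, Slamf1 and Cd84 are lower and Ly9 is higher in every Dot1l-deleted library.

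Beyond the SLAM receptors, SLAM signalling runs through the adaptors SAP and EAT-2 and the kinase FYN. Of 12 SLAM relatives and signalling genes, 5 were tested, 1 rose (Ly9), 1 fell (Fyn) and 3 were not called, with a median log2 fold change of -0.12. Fyn was at 5.74, 5.04 and 4.05 FPKM in the Dot1l-deleted libraries, against 22.3, 25.5 and 24.3 FPKM in controls (log2 fold change -2.08, limma adjusted p = 4.995e-06). Sh2d1a, the gene of SAP, was listed at 0 in all 6 libraries. Sh2d1b1, an EAT-2 gene, was at 0.372 to 0.687 FPKM after deletion and at 0.0897 to 0.165 FPKM in controls, untested.

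Procr encodes a receptor that binds protein C and helps its activation by thrombin and thrombomodulin. Its FPKM was 4.13, 4.91 and 3.13 in the Dot1l-deleted libraries, against 9.20, 11.8 and 12.3 in controls. The groups did not overlap, and the first control was the lowest of its group. The log2 fold change was -1.27 (SE 0.172, limma adjusted p = 0.00044277), and -1.11 scaled. Of 11 genes of the protein C and thrombin receptor pathway, 8 were tested, 2 rose, 4 fell and 2 were not called. Thbd, the thrombomodulin gene, was at 8.76, 8.84 and 6.18 FPKM in the Dot1l-deleted libraries, against 23.8, 28.9 and 25.7 FPKM in controls (log2 fold change -1.62, limma adjusted p = 5.5081e-05). The thrombin receptor genes F2r, F2rl2 and F2rl3 were the others that fell. F5 and F10, which encode coagulation factors, rose by log2 fold changes of 1.87 and 1.61 (limma adjusted p = 1.6584e-05 and 0.00011768). F5 averaged 5.81 FPKM after deletion and 0.850 FPKM in controls, and so passed the filter only through the Dot1l-deleted libraries. With scaling 4 genes of that list rose, while over all genes the number called higher went from 886 to 2740.

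Cd93 encodes a membrane protein with a C-type lectin-like domain, of the same small family as thrombomodulin. Its FPKM was 65.8, 65.5 and 48.6 in the Dot1l-deleted libraries, against 113, 122 and 117 in controls. All Dot1l-deleted libraries lay below all controls. The mean was 59.9 ± 9.86 FPKM after deletion and 117 ± 4.71 FPKM in controls (SD, n = 3 each), with a log2 fold change of -0.97 (SE 0.173, limma adjusted p = 0.002651), and -0.79 scaled. Thbd is the neighbour of Cd93 on chromosome 2 in RefSeq map order and also fell, as given above. Nxt1, a nuclear export gene on its other side, had a log2 fold change of -0.076 (limma adjusted p = 0.795). Of the family's other members, Clec14a and Cd248 were at or under 0.191 FPKM in every library. Of the list of 6 relatives and partners of CD93, 3 were tested and 1, Thbd, fell. Gipc1 and Msn, which encode proteins that bind the CD93 tail, had log2 fold changes of 0.038 and 0.032 (limma adjusted p = 0.901 and 0.913). Both were called higher with scaling (scaled values 0.22 and 0.22, adjusted p = 0.00652 and 0.00658).

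Ptk7 encodes a receptor-like pseudokinase of Wnt and planar cell polarity signalling. Its FPKM was 10.3, 8.55 and 5.83 in the Dot1l-deleted libraries, against 6.03, 6.63 and 5.82 in controls. The third Dot1l-deleted library lay among the controls, and the other 2 lay above them. The log2 fold change was 0.34 (SE 0.184, 95% interval -0.072 to 0.74) and was not called (limma adjusted p = 0.237). Scaled, the FPKM was 9.80, 8.22 and 7.71 in the Dot1l-deleted libraries, against 5.57, 6.23 and 5.53 in controls, and the gene was called higher (scaled value 0.49, adjusted p = 0.00667). Without the third Dot1l-deleted library it was also called higher (0.54, adjusted p = 0.0126). Of 24 Wnt receptor and planar cell polarity genes, 13 were tested, 1 rose, 2 fell and 10 were not called, with a median log2 fold change of -0.24. The number that rose was 3 with scaling and also without the third Dot1l-deleted library. Calls grew over all genes too, from 886 of 11924 called higher as deposited to 2740 with scaling and 2069 without that library. Whether the list differed from all genes in this was not tested. No gene of the list was called with a minimum mean of 5 FPKM. Fzd3, a Frizzled receptor gene, rose by 1.26 and Fzd5, another, fell by 1.22 on the log2 scale (limma adjusted p = 0.00077597 and 0.00084159). Each passed the filter through 1 group only, as Fzd3 averaged 3.41 FPKM after deletion and 0.829 FPKM in controls, and Fzd5 0.620 FPKM after deletion and 2.77 FPKM in controls. Prickle1, a cytoplasmic polarity gene, fell by 0.67 on the log2 scale (limma adjusted p = 0.0083147), and lost the call without control replicate 3 (adjusted p = 0.0572).

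Robo4 encodes a roundabout receptor of endothelial and blood stem cells. It was listed at 0 in all 6 libraries, and Robo3, the next gene on chromosome 9, was at 0.138 to 0.203 FPKM in the Dot1l-deleted libraries and at 0.238 to 0.281 FPKM in controls. Of 12 genes of the Robo and Slit pathway, 11 were matched and 3 tested. Abl1, a kinase that acts downstream of Robo receptors, fell (19.1, 16.4 and 13.3 FPKM in the Dot1l-deleted libraries, against 30.3, 33.1 and 29.7 FPKM in controls; limma adjusted p = 0.002465).

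**Figure D4:**
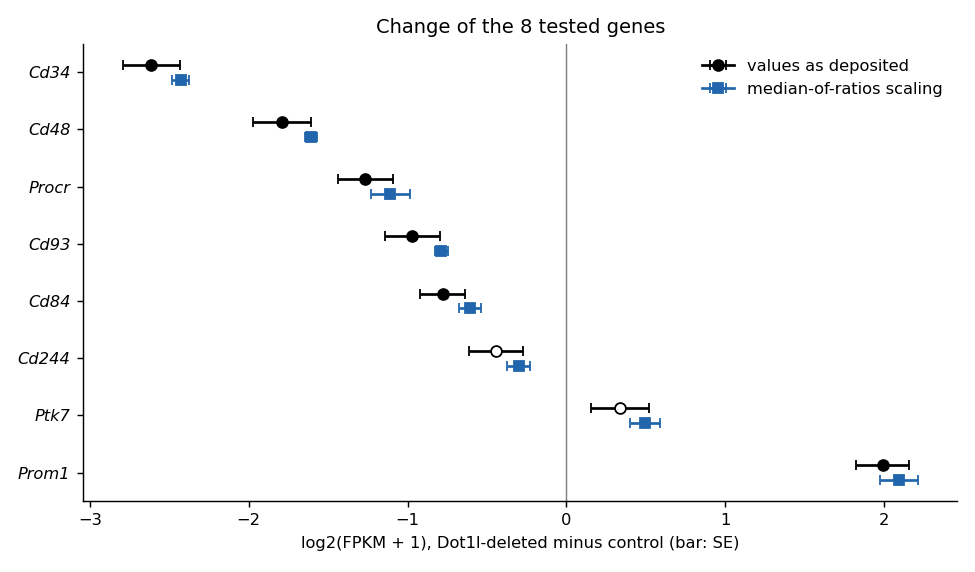
Change of the 8 tested antigen genes on the log2(FPKM + 1) scale, Dot1l-deleted minus control, with the SE, for values as deposited (black circles) and after median-of-ratios scaling (blue squares). Filled symbols have an adjusted p under 0.05. Cd244 and Ptk7 are open as deposited, at -0.44 and 0.34, and filled after scaling.

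The order of the levels changed between groups. After deletion it ran Cd34, Cd93, Cd48, Cd84, Ptk7, Prom1, Procr, Cd244, Slamf1 and Robo4. In controls it ran Cd34, Cd48, Cd93, Cd84, Procr, Ptk7, Cd244, Slamf1, Prom1 and Robo4, and neighbours in that order did not overlap. After deletion the ranges of Cd93 and Cd48 overlapped (48.6 to 65.8 and 45.6 to 66.3 FPKM), as did those of Prom1 and Procr and of Procr and Cd244. Prom1 lay above Cd244 and Slamf1 in every Dot1l-deleted library, and below every other gene but Robo4 in all 3 controls.

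Of 29 other surface antigens used to sort blood progenitors, 24 were tested, 5 rose, 10 fell and 9 were not called, with a median log2 fold change of -0.36. Scaled, 8 rose. The largest falls by adjusted p were those of Flt3, a receptor tyrosine kinase gene, of Cd27, a TNF receptor family gene, and of Thy1, a lipid-anchored glycoprotein gene, at log2 fold changes of -3.76, -3.94 and -2.21 (limma adjusted p = 2.6782e-07, 2.9722e-07 and 5.6513e-06). The genes that rose, named after their values were seen, were Alcam (log2 fold change 1.86), Fcgr3 (1.51), Csf1r (1.24), Fcgr2b (0.96) and Ly6a (0.72). Alcam and Csf1r, at 0.475 and 0.507 FPKM on average in controls, passed the filter only through the Dot1l-deleted libraries, so at those control levels a tested gene had to be higher after deletion. The genes of the classical progenitor gates were also looked up after their values were seen. Kit, the stem cell factor receptor gene, was at 66.8, 61.7 and 44.1 FPKM in the Dot1l-deleted libraries, against 116, 125 and 111 FPKM in controls. Fcgr3 was at 279, 310 and 213 FPKM in the Dot1l-deleted libraries, against 99.7, 90.3 and 87.4 FPKM in controls. Ly6a, the Sca-1 gene, was at 10.6, 9.29 and 7.09 FPKM in the Dot1l-deleted libraries, against 5.43, 4.62 and 4.95 FPKM in controls. RNA of Kit and Cd34 was thus present in all 6 libraries but lower after deletion (Kit log2 fold change -1.04, limma adjusted p = 0.00287). RNA of Fcgr3 and Ly6a was higher. CD34 is shared by the gates of common myeloid progenitors and of granulocyte and macrophage progenitors, so its presence does not tell these apart.

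**Figure D5:**
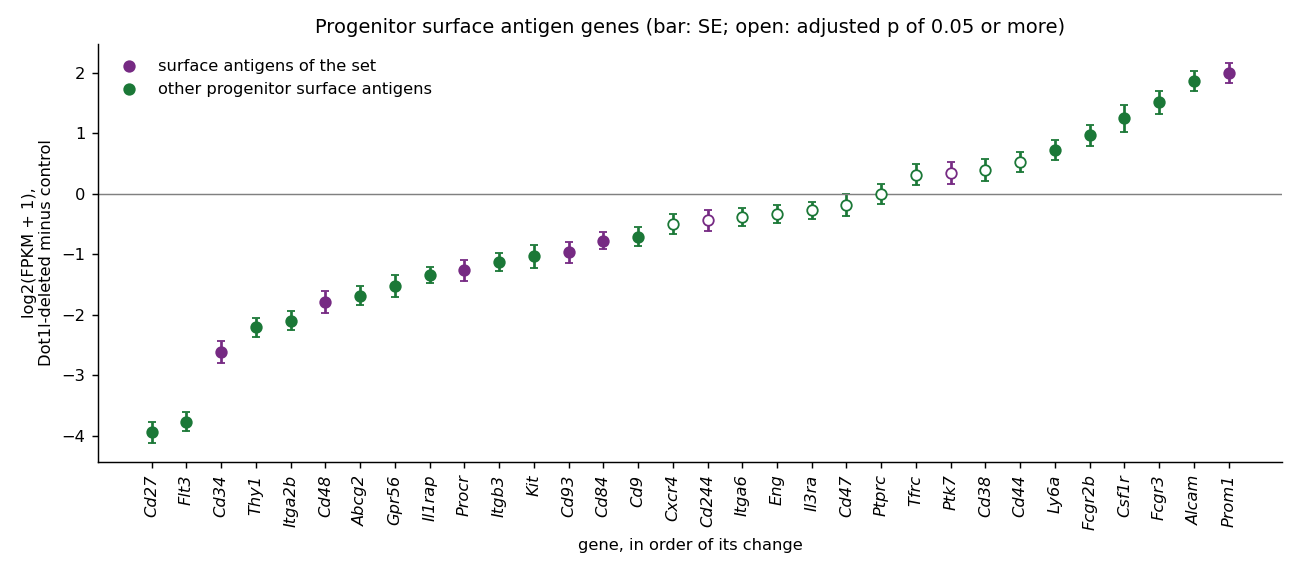
Change of 32 tested progenitor surface antigen genes on the log2(FPKM + 1) scale, Dot1l-deleted minus control, in order of size with the SE. Purple marks the genes described here and green the other antigens, and open symbols have an adjusted p of 0.05 or more. Cd27 and Flt3 lie lowest, next to Cd34 at -2.61, and Prom1 lies highest at 1.99.

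CD34 belongs to a family of sialomucins with podocalyxin, and both can carry sugars that selectins bind. Podxl, the podocalyxin gene, was at 5.75, 6.42 and 5.31 FPKM in the Dot1l-deleted libraries, against 11.1, 12.6 and 8.97 FPKM in controls (log2 fold change -0.79, limma adjusted p = 0.0042029).

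Genes whose values followed those of the called antigen genes most closely were found by the root mean square difference of log2(FPKM + 1), over the 6 libraries, after subtracting each gene's own mean. For Cd34 these were Meis1, Msi2 and Mycn, at 0.0907, 0.107 and 0.128. For Prom1 they were Cmah, Ndufa4l2 and Entpd1, at 0.0526, 0.0637 and 0.0643. In controls these averaged 0.531, 0.464 and 0.664 FPKM, so like Prom1 they passed the filter only through the Dot1l-deleted libraries. At such control levels a tested gene had to be higher after deletion. For Cd48 they were Slc35d3, Muc13 and H2afy2, for Procr Socs2, Pgm2l1 and Gstt1, for Cd93 Acvr1b, Twsg1 and Plekho1, and for Cd84 Srd5a1, Zcchc11 and Myo6, at 0.0249 to 0.103. Myo6 averaged 0.624 FPKM after deletion and 1.74 FPKM in controls, and so passed the filter only through the controls. With 2 groups, such a list mainly gathers genes with a change of like size.

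Markers of other cells moved between the groups as well, and in bulk RNA fewer cells of a type and less RNA per cell cannot be told apart. All 8 tested neutrophil markers of 9 matched rose, with a summed level of 20624 to 24452 FPKM after deletion and 994 to 1227 FPKM in controls, most of it S100a8 and S100a9 (log2 fold changes 4.53 and 4.23, limma adjusted p = 1.8334e-07 and 2.6782e-07). Of the markers that rose, 1 neutrophil and 2 monocyte and macrophage genes had a control mean under 1 FPKM and passed the filter only through the Dot1l-deleted libraries. Of 7 tested monocyte and macrophage markers, 5 rose, among them Lyz2 and Cd14, and 1 fell, with sums of 456 to 532 FPKM after deletion and 133 to 149 FPKM in controls. Of 7 tested mast cell and basophil markers, 1 rose and 4 fell, among them Ms4a2 and Gata2, with sums of 1590 to 2302 FPKM after deletion and 2540 to 2788 FPKM in controls. The gene that rose was Tpsb2, and the number of mast cell and basophil markers that rose ran from 0 to 2 over the 17 alternatives, being 2 with scaling and 0 without any 1 control library or Dot1l-deleted replicate 2. The part of these cells in the changes of the antigen genes was not tested.

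Cd34, Procr, Cd93 and Robo4 are also known from endothelium, and Prom1 from epithelium. The defining endothelial marker Cdh5 was at 0 to 0.00996 FPKM after deletion and at 0 to 0.0102 FPKM in controls, and Cldn5 at or under 0.0338 FPKM in every library. Of 10 endothelial markers 3 were tested and Pecam1, which blood cells also express, fell (log2 fold change -0.57, limma adjusted p = 0.0396), a call lost without any 1 library other than the third Dot1l-deleted one (adjusted p = 0.0519 to 0.178) and with no filter (0.0514). Their summed level was 51.9 to 72.4 FPKM after deletion and 91.0 to 100 FPKM in controls. Of 6 epithelial markers, Krt19 and Cdh1 passed the filter, both only through the Dot1l-deleted libraries, so that a higher level there came with being tested. Krt19 averaged 2.01 FPKM after deletion and 0.0418 FPKM in controls, and Cdh1 averaged 1.94 FPKM after deletion and 0.374 FPKM in controls. The list sum was 4.39 to 5.23 FPKM after deletion and 0.462 to 0.760 FPKM in controls, while Krt8 was at or under 0.0278 FPKM throughout. The part of epithelial genes in the rise of Prom1 was not tested. None of 10 T, B and NK cell markers reached the filter, and their sum was 0.363 to 0.810 FPKM after deletion and 0 to 0.182 FPKM in controls.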

How the data were processed

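The 10 genes, the lists and the tests were chosen with earlier results of these data known, so they are not independent of them. The authors deposited 1 FPKM value per Ensembl gene and library, made with an Illumina stranded mRNA kit per the labels. The tools were GSNAP, Cuffdiff, SAMtools and CASAVA 1.8.2, on build mm9, per the submitters' processing notes, in no stated order; use of strand in the counting is not stated there. The value 999999999 was read as a failed estimate, and 378 genes with it in any library were left out. FPKM gives no counts. Relative depths, read from the single-read steps of rows for small RNAs and therefore approximate, were 0.739 to 0.898 after deletion and 0.787 to 1.0 in controls, with the first control as 1.0. The 11924 genes whose mean FPKM reached 1 were fitted with limma 3.58.1 in R 4.3.3 (mean-variance trend, two-sided, Benjamini-Hochberg). The fit was tested on simulated data with independent noise per gene and library. Those data held no shift of a whole library, such as that of the third Dot1l-deleted library. Single values were compared by exact permutation. Named genes were Dot1l, the 10 genes, up to 3 called genes per context list and up to 2 per marker list by adjusted p, and the 3 nearest patterns of each called antigen gene; some list results are not reported here. Map order and promoters came from RefSeq GRCm38.p6; 9 of the 10 genes had a promoter there, Cd244 under the name Cd244a. Alternatives were the pseudocount, the filter, scaling, the variance model, weights, the replicate block, summed symbols and each library left out.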

Additional observations from a re-analysis of the deposited data

How the results depend on the processing

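The calls and directions of Cd34, Cd48, Procr, Cd93 and Cd84 held under all 17 alternatives, and that of Prom1 under all 16 that tested it. Prom1 passed the filter only through the Dot1l-deleted libraries, so at its control level a tested gene had to be higher. Only the run with no filter on low values was free of this (log2 fold change 1.99, limma adjusted p = 0.000553). Their log2 fold changes ran from -2.73 to -2.43 for Cd34, -1.89 to -1.60 for Cd48, -1.44 to -0.83 for Procr, -1.04 to -0.79 for Cd93, -0.85 to -0.61 for Cd84 and 0.82 to 3.26 for Prom1. Of the 10 antigen genes 1 was called higher as reported; this was 2 with median-of-ratios scaling, quantile normalization, array weights, and scaling without Dot1l-deleted replicate 3, and 0 with a minimum mean of 5 FPKM, which left Prom1 out. Leaving out 1 library gave 1 to 2 called higher, 2 without the third Dot1l-deleted one. The added higher call was Ptk7 in each case. Over all genes, 5401 were called with median-of-ratios scaling (2740 higher, 2661 lower), 5608 with quantile normalization (2412 and 3196), 5716 with array weights (2531 and 3185), and 4567 with scaling and without the third Dot1l-deleted library (2331 and 2236). Under no filter on low values, 1342 were called higher. Leaving out 1 library gave 1428 to 4573 called, 661 to 2069 higher and 763 to 2504 lower; the total was 1501, 1428 and 1488 without control replicates 1, 2 and 3, and 4573 without Dot1l-deleted replicate 3. The difference of Cd84 over Slamf1 was 0.67 with a pseudocount of 0.1, against -0.26 with 1. With the replicate number as a block, 2953 genes were called over all, and the calls on the antigen genes were as reported. Same-numbered libraries did not deviate together (r = -0.030, -0.038 and 0.013 across genes), and not every library correlated best with its own number. With 3 libraries per group, these values cannot tell whether same-numbered libraries shared a culture, mouse or batch. The cause of these moves was not tested. FPKM hides the reads behind Slamf1 and Prom1.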
